A study of Homo sapiens with 24 samples.

Results

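The 4 HOX clusters and the noncoding RNAs transcribed against or between them were described in human neural progenitors with and without BRAT1. The members were the 39 coding genes named HOXA, HOXB, HOXC or HOXD with a number, the 13 features named as antisense RNAs of these clusters, and HOTAIR, HOTAIRM1 and HOTTIP, which makes 16 noncoding members and 55 members of 61248 counted features. HOXA has 17 members on chromosome 7, HOXB 14 on chromosome 17, HOXC 14 on chromosome 12 and HOXD 10 on chromosome 2. The members were taken by name, and the set was chosen with earlier results of these data known.

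HOX genes encode homeodomain transcription factors that give cells their position along the head to tail axis. Within a cluster the genes lie in the order in which they are used, so low paralogue numbers mark the hindbrain and high numbers the caudal spinal cord and trunk, and the forebrain and midbrain express none of them. In the neural tube the anterior genes are known to be opened by retinoic acid and FGF signals, to be held silent by Polycomb proteins and kept active by MLL proteins, and to act with PBX and MEIS cofactors.

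The libraries came from H7, a human embryonic stem cell line. BRAT1, which binds the RNA-cleaving subunit of the Integrator complex, was knocked out in 2 lines, and 2 control lines were carried beside them. All 4 lines were sampled at day 0 as untreated stem cells and at day 14 as progenitors differentiated toward ventral neural fates, with 3 biological replicates lettered A to C per line and day. Each genotype and day therefore has 6 libraries from 2 lines, and the 24 libraries are poly(A) RNA made into Click-Seq libraries. The labels name the replicates biological and do not say whether they are separate cultures or whether a line is 1 clone. Libraries held 2228736 to 3726227 counts at day 14 and 1407832 to 2143871 at day 0. A count of 0 in 1 library allows a level of up to 0.805 to 1.35 CPM (counts per 1000000 counts of a library) at day 14 and up to 1.4 to 2.13 CPM at day 0, for counting error only (3 counts of the total). BRAT1 itself had 414 to 1077 counts in the 6 control libraries at day 14, 21 to 63 in knockout line 1 and 227 to 262 in knockout line 2, so its counts were lower in both knockout lines, and line 2 kept more of them than line 1. At day 0 BRAT1 had 0 to 10 counts in every library, controls included, and does not check the day 0 labels.

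The strand of the counts bears on every member, because sense and antisense RNAs share these loci. Click-Seq keeps the strand of the RNA, and the strand setting used in counting is not given in the sources used here. TALAM1, the antisense partner of the abundant nuclear RNA MALAT1, held 6.91% of all counts, while MALAT1 held 0.00444%. Among 470 pairs of a gene and its like-named antisense gene that share at least 100 bases of exon and hold at least 100 counts, 323 (68.7%) had more counts under the antisense name. Many counts under a name may therefore be reads of the RNA on its opposite strand, and for the HOX members the 2 sources cannot be told apart. Levels below are levels of counts under a name. The 8 stem cell markers summed to 33.7 to 154 CPM at day 0 and 55.2 to 134 CPM at day 14. In controls 6 of them were tested between the days, of which POU5F1 (log2 fold change -4.30), TDGF1 (-6.84) and DNMT3B (-2.65) were lower at day 14 and LIN28A (1.94) was higher, with a median of -1.24 beside 0.6 over all features.

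Counts under HOX names lay mostly at the anterior end of the HOXB cluster in day 14 controls. All members together held 7971 counts in the 6 control libraries and 1287 in the 6 knockout libraries at day 14, and HOXB3 alone made up 85.0% of the first sum and 61.1% of the second. Coding paralogues 1 to 3 held 7063 counts in controls and 853 in knockouts, paralogues 4 to 8 held 23 and 48, and paralogues 9 to 13 held 84 and 138. By cluster, controls held 7538 counts under HOXB names, 325 under HOXA, 81 under HOXC and 27 under HOXD. Knockouts held 899, 220, 116 and 52. Of the 55 members, 33 had a count in some day 14 library and 18 had none in any of the 24 libraries.

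**Figure D1:**
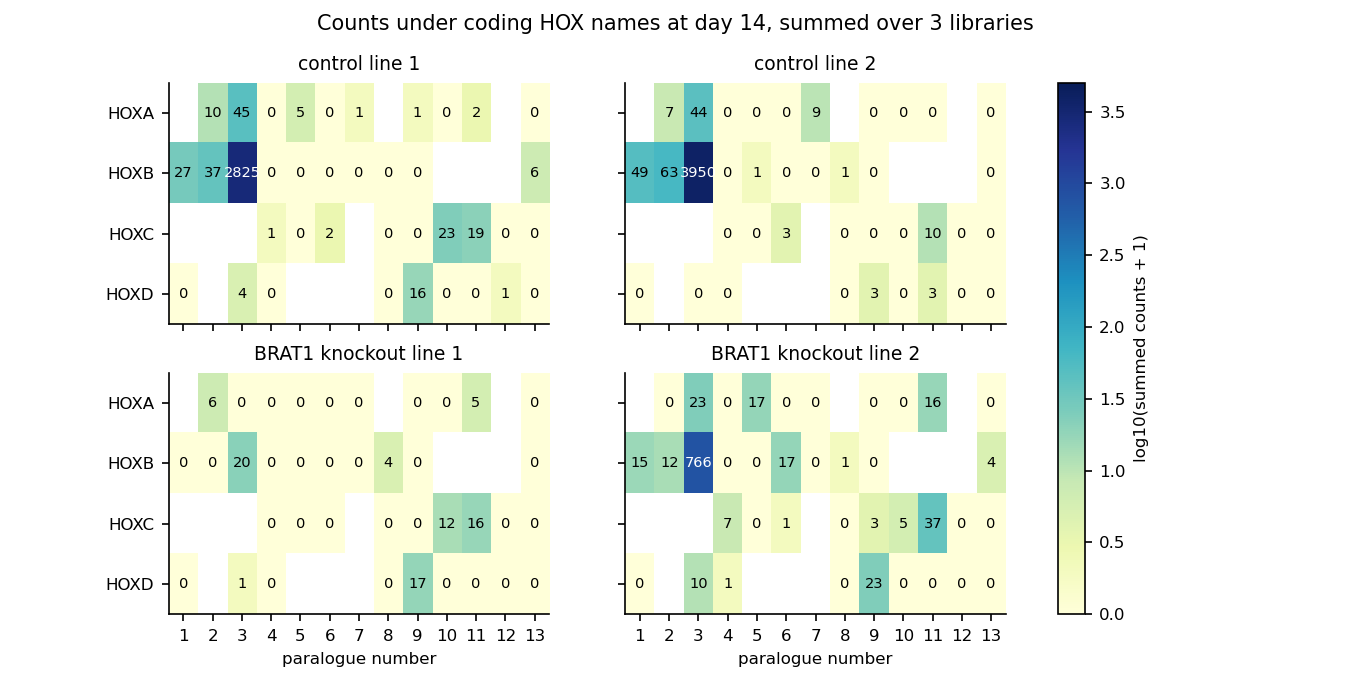
Counts under coding names at day 14, by cluster (rows) and paralogue number (columns), summed over the 3 libraries of each line, with the colour on a log10 scale and blank squares where no such gene exists or its value is not reported here. HOXB3 holds 2825 and 3950 counts in the control lines, 20 in knockout line 1 and 766 in knockout line 2.

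HOXB3 (ENSG00000120093), an anterior paralogue of the hindbrain, lies at chr17:48548870-48604912 on the minus strand in GENCODE release 29 on GRCh38. At day 14 the replicates of control line 1 held 784, 945 and 1096 counts and those of control line 2 held 1325, 1753 and 872. Knockout line 1 held 1, 15 and 4, and knockout line 2 held 228, 201 and 337. Every control library lay above every knockout library, and every line 2 knockout library above every line 1 knockout library. The mean level was 288 ± 71.0 CPM for control line 1, 423 ± 82.1 for control line 2, 2.31 ± 2.76 for knockout line 1 and 83.3 ± 22.3 for knockout line 2 (SD, n = 3 each).

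HOXB-AS1 (ENSG00000230148, chr17:48543551-48551250, plus strand) is a noncoding RNA whose exons overlap 374 bases of HOXB3 and 87 bases of HOXB2, 29.6% of its exon length. Control line 1 held 36, 54 and 52 counts and control line 2 held 133, 217 and 79. In the knockouts, line 1 held 0, 4 and 0 and line 2 held 10, 7 and 12. The control and knockout libraries did not overlap. HOXB3 and HOXB-AS1 moved in the same direction, so the difference for this pair has 1 direction whichever strand the reads came from. HOXB-AS3, which shares 77 bases of exon with HOXB3 on the other strand, held 8 counts in controls and 16 in knockouts.

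HOXB2 (ENSG00000173917, chr17:48540894-48544989, minus strand), a hindbrain gene beside HOXB3, had 7, 13, 17, 17, 33 and 13 counts in the control libraries. There were none in knockout line 1, while line 2 held 4, 6 and 2. The genotypes did not overlap, but only narrowly, with 1.90 CPM in the lowest control library and 1.88 in the highest knockout library. HOXB1 (ENSG00000120094, chr17:48528526-48531001, minus strand), the marker of a single hindbrain segment, had 6, 5, 16, 14, 31 and 4 counts in controls, none in knockout line 1, and 0, 15 and 0 in line 2. Its genotypes overlapped through replicate B of knockout line 2, which held all 15 knockout counts. HOXB1 shares no exon bases with a gene on the other strand, while HOXB2 shares 3.7% of its exon length with HOXB-AS1.

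In the rest of the HOXB cluster counts were at or near 0 beyond HOXB3. HOXB4, HOXB7, HOXB9 and HOXB-AS2 had no count in any library, HOXB5 had 1 count at day 14, and HOXB8 had 6. HOXB6 had no count in controls or knockout line 1 and had 2, 4 and 11 in knockout line 2. HOXB-AS3 had 24 counts in 6 of the 12 libraries and HOXB-AS4 11 in 3 of them, while HOXB13, a far posterior gene set apart from the cluster, had 10 in 2. Per kilobase of exon, the mean control level was 1.56 CPM for HOXB1, 2.26 for HOXB2, 47.7 for HOXB3 and 19.2 for HOXB-AS1. The mean knockout level per kilobase was 0.317, 0.28, 5.74 and 1.17 CPM in the same order.

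**Figure D2:**
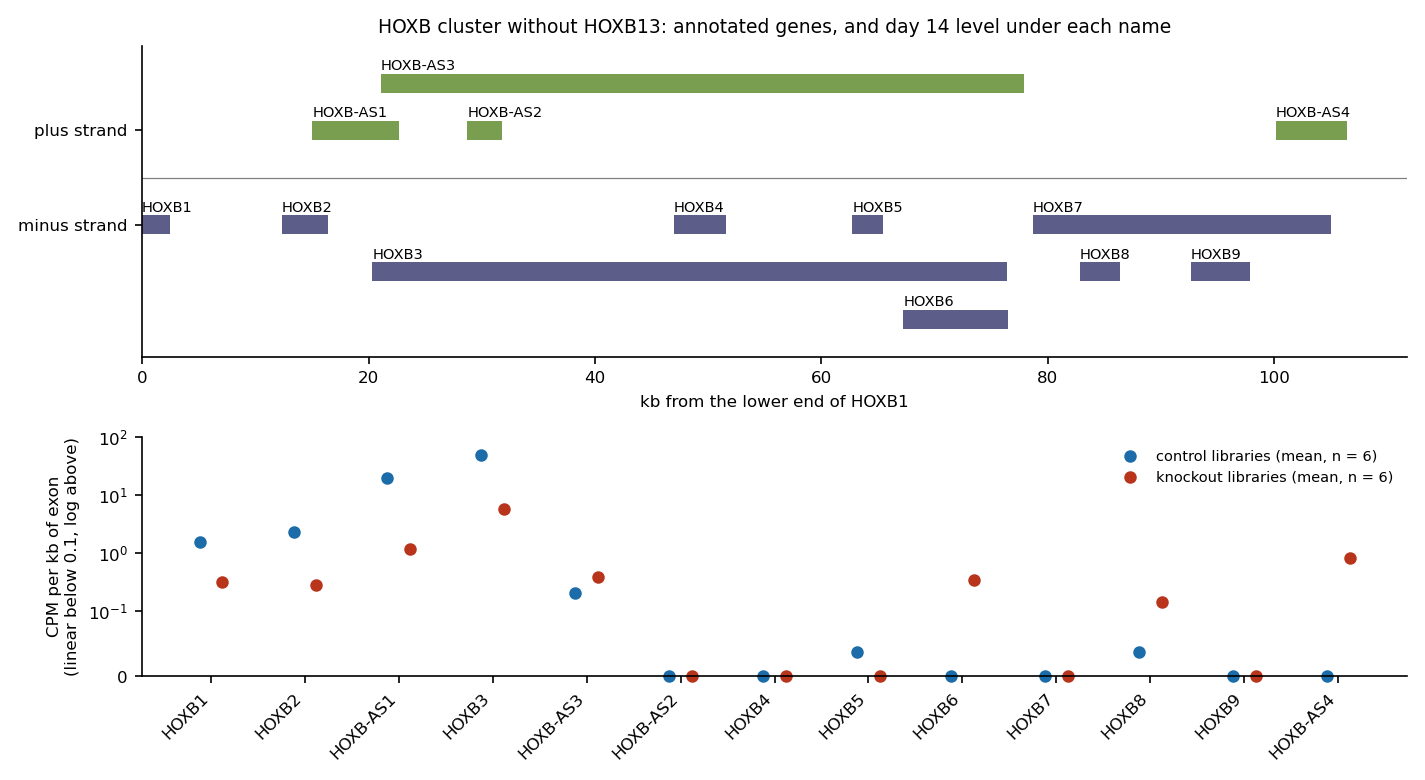
Top: annotated extent and strand of the HOXB genes against distance in kb from the lower end of HOXB1, without HOXB13. Bottom: mean CPM per kb of exon at day 14 under each name in 6 control and 6 knockout libraries, linear below 0.1 and log above, where HOXB3 reaches 47.7 in controls and 5.74 in knockouts and HOXB4 is at 0 in both.

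Promoter sequences from RefSeq (GRCh38.p14) were found for 29 of the 55 members, in 37 windows of 250 bases before to 50 bases after a start. No window was found for HOXB3, HOXB2 or HOTAIRM1, so the motif counts below do not cover them. Shown are HOXB1 and HOXB-AS1, whose counts were lower in knockouts, and HOXA-AS3, whose counts were higher. They are printed 5′ to 3′ on the gene's strand with capitals for matches to TGATNNAT on either strand, a core of the shared PBX and HOX binding motif, which 7.4% of 35116 promoter windows of this length hold.
HOXB1 chr17:48530962-48531261 minus strand: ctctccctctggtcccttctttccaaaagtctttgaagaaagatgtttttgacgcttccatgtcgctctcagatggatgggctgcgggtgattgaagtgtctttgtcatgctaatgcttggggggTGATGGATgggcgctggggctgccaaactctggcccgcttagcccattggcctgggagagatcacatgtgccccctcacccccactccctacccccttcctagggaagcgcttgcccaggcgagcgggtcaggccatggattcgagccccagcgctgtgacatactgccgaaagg
HOXB-AS1 chr17:48544101-48544400 plus strand: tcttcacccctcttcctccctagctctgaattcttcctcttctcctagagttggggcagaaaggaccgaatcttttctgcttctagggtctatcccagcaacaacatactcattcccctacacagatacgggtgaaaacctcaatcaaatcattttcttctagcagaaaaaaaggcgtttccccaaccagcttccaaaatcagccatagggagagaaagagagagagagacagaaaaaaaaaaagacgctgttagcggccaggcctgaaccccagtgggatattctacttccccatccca
HOXA-AS3 chr7:27146913-27147212 plus strand: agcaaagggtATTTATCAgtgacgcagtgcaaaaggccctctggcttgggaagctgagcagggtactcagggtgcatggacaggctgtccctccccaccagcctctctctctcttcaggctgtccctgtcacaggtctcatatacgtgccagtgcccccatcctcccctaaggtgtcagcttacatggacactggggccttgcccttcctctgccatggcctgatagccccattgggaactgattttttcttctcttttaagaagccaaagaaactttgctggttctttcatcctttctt
The HOXB1 window holds 1 match, TGATGGAT from base 126, and the HOXA-AS3 window holds 1, ATTTATCA from base 11, while the HOXB-AS1 window holds none. The windows of HOXA2 and HOXD11 also hold 1 match each. No window of a member holds AGGTCA, the core hexamer of the retinoic acid receptor's binding site, which 13.8% of all windows hold on either strand. TAATTA, a homeodomain core present in 4.84% of windows, occurs in those of HOXA-AS2, HOXD3 and HOXD11. These matches describe letters in the windows and were not set against the counts by a test. The HOXB-AS1 and HOXA-AS3 windows lie inside the annotated extents of these genes, not at their 5′ ends.

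In the HOXA cluster 4 members carried most of the day 14 counts, and they did not all differ the same way. HOTAIRM1 (ENSG00000233429, chr7:27095647-27100265, plus strand), a noncoding RNA at the anterior end of the cluster known to be induced by retinoic acid, had 25, 4, 13, 25, 21 and 12 counts in controls, none in knockout line 1, and 2, 0 and 1 in line 2, with no overlap between the genotypes in CPM. HOXA3 (ENSG00000105997, chr7:27106184-27152581, minus strand), the HOXA paralogue of HOXB3, had 18, 5, 22, 28, 14 and 2 counts in controls, none in knockout line 1, and 8, 0 and 15 in line 2. HOXA3 therefore overlapped between controls and knockout line 2 only.

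HOXA-AS2 (ENSG00000253552, chr7:27107777-27134302, plus strand), which shares exon bases with HOXA3 and HOXA4, had 9, 3, 16, 12, 20 and 9 counts in controls. Knockout line 1 held 0, 4 and 8 and knockout line 2 held 10, 4 and 0, so the genotypes overlapped. HOXA-AS3 (ENSG00000254369, chr7:27129977-27155928, plus strand) went the other way, with 6, 3, 7, 8, 6 and 0 counts in controls. Knockout line 1 held 18, 41 and 21 and knockout line 2 held 16, 22 and 6, and only replicate C of line 2 lay within the control range. Of its exon length 39.3% lies opposite other genes, among them HOXA7, HOXA6, HOXA3 and HOXA4. HOXA6 and HOXA4 had no count in any library and HOXA7 had 10 in 2 control libraries.

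The other HOXA members were sparse at day 14. HOXA2 had 17 counts in controls and 6 in knockouts, all of the latter in 1 library. HOXA5 had 5 counts in 1 control library and 17 in 1 library of knockout line 2, HOXA11 had 2 counts in controls and 21 in knockouts, and HOXA9 had 1. HOXA10, HOXA10-AS, HOXA11-AS and HOTTIP, a noncoding RNA of the posterior end, had none in any library.

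Posterior HOXC and HOXD names held low counts in both genotypes. HOXC11 (ENSG00000123388, chr12:53973126-53977643, plus strand) had 3, 11, 5, 4, 0 and 6 counts in controls. Knockout line 1 held 1, 0 and 15 and knockout line 2 held 16, 21 and 0. HOXC10 had 23 counts in controls, all in line 1, and 17 in knockouts. HOTAIR, which overlaps the start of HOXC11 without shared exon bases, had 15 in controls and 10 in knockouts, all of these in knockout line 1. HOXD9 had 8, 1, 7, 1, 0 and 2 counts in controls. Knockout line 1 held 0, 6 and 11 and knockout line 2 held 18, 5 and 0. The genotypes overlapped for all of these.

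The remaining HOXC and HOXD members had at most 21 counts each over the 12 day 14 libraries, the highest being HOXC-AS3, and HOXC5, HOXC12, HOXC-AS1, HOXD1, HOXD8, HOXD10, HOXD13 and HOXD-AS2 had none in any library.

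**Figure D3:**
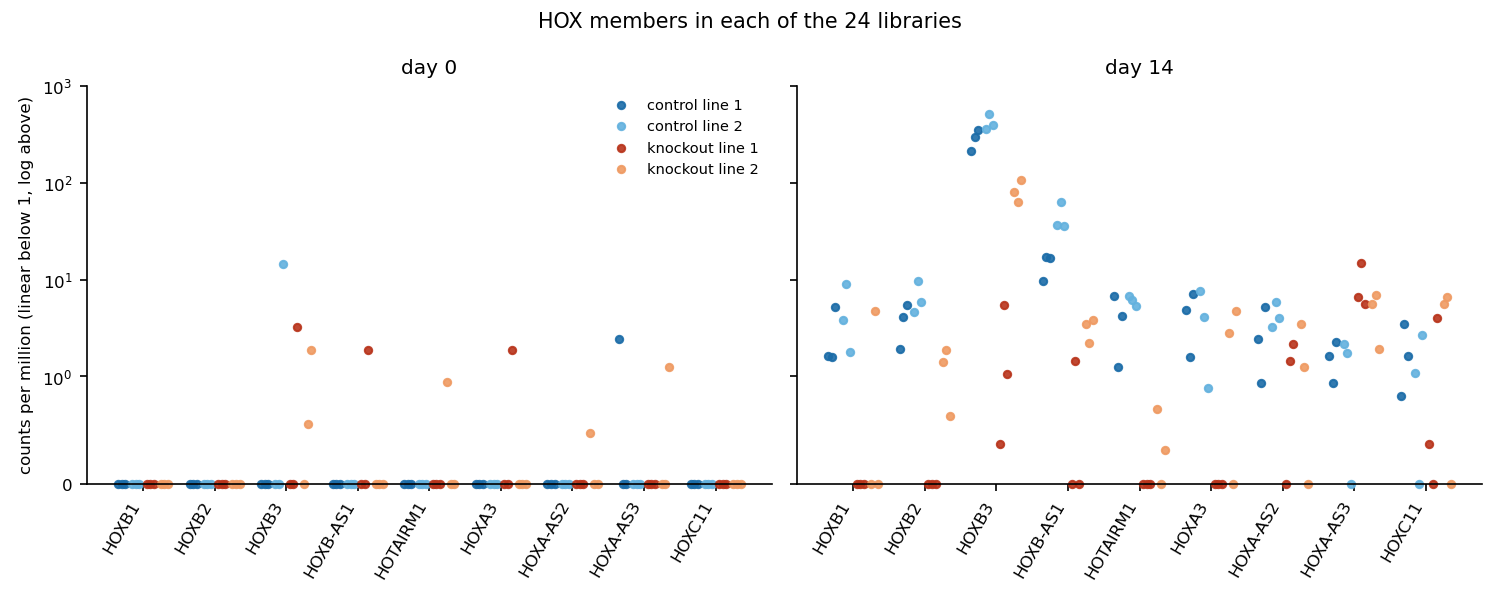
CPM under 9 HOX names in each library at day 0 (left) and day 14 (right), 1 point per library, coloured by line, on an axis that is linear below 1 and log above. HOXB3, HOXB-AS1, HOXB2 and HOTAIRM1 separate control from knockout libraries at day 14, and nearly all points are at 0 at day 0.

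Knockout and control libraries were compared at day 14, 6 against 6, to ask which members differed with BRAT1. Both members that passed the filter on low counts were lower in knockouts, HOXB-AS1 by 4.02 on the log2 scale (log2 fold change -4.02, SE 0.66, edgeR quasi-likelihood adjusted p = 0.000505) and HOXB3 by 3.08 (log2 fold change -3.08, SE 0.91, adjusted p = 0.0361). No member was called higher. Over all 11408 features tested, 10.7% were called lower and 11.0% higher. A member that passes the filter only through its control libraries had to differ, so the count of 2 says little about the cluster. HOXB-AS1 kept its call under each of its 23 alternatives except the sum of counts per line (adjusted p = 0.102). HOXB3 held its direction in all of its alternatives but kept its call without only 4 of the 12 left-out libraries, which were control line 1 replicate A, knockout line 1 replicates A and C, and knockout line 2 replicate C. Without any of the other 8 libraries the adjusted p for HOXB3 was 0.0501 to 0.0623, and it was 0.133 and 0.214 without control line 1 or 2, 0.144 with all 24 libraries in 1 fit and 0.488 with counts summed per line. The estimate was -2.17 without knockout line 1 and -7.32 without knockout line 2.

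Every control library lay above every knockout library in CPM at day 14 for 4 members, HOXB3, HOXB-AS1, HOXB2 and HOTAIRM1, and the reverse held for none. Of 40325 features with a count at day 14, 1.94% had the same order and 1.64% the reverse. With no filter on low counts, which tested 33 members, edgeR also called HOXB2 lower (log2 fold change -3.01, adjusted p = 0.00594) and HOTAIRM1 lower (-4.76, adjusted p = 8.29e-05), and HOXA-AS3 higher (2.10, SE 0.65, adjusted p = 0.0213), while HOXB3 did not pass (adjusted p = 0.089). That fit called 3.86% of all features lower and 3.57% higher. DESeq2 called HOXB3, HOXB-AS1, HOXB2 and HOTAIRM1 lower and HOXA-AS3 higher (adjusted p = 0.00465), where it called 6.68% of features lower and 7.69% higher.

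Each knockout line was then set against the 6 control libraries in 1 fit with a group for each line, which tested 9 members. These 2 comparisons share their controls. HOXB1, HOXB2, HOXB-AS1, HOTAIRM1, HOXA3 and HOXA-AS2 passed the filter through their control libraries, and HOXA-AS3 and HOXC11 through their knockout libraries. The filter thus bore on their direction, so the number of members called in either line says little about the clusters. In knockout line 1, 6 members were lower (HOXB1, HOXB2, HOXB3, HOXB-AS1, HOTAIRM1 and HOXA3) and HOXA-AS3 was higher, where 8.99% of 15000 features were called lower and 8.05% higher. The log2 fold change was -7.34 for HOXB3 (SE 0.49, adjusted p = 7.85e-07) and -5.78 for HOXB-AS1 (SE 0.65, adjusted p = 3.91e-08). The 4 others had no count in that line, so their fold is a bound set by 3 counts over its 3 libraries. HOTAIRM1 was at least 15.9-fold lower (adjusted p = 0.00224), HOXB2 at least 15.9-fold (0.00102), HOXA3 at least 14.1-fold (0.00501) and HOXB1 at least 12.0-fold (0.0162).

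The HOXA-AS3 log2 fold change in knockout line 1 was 2.53 (SE 0.71, adjusted p = 0.0117), which did not pass without replicate B of that line (1.97, adjusted p = 0.145). HOXB1 did not pass without replicate C of that line (adjusted p = 0.0507). HOXA-AS2 (log2 fold change -1.61, SE 1.10, adjusted p = 0.352) and HOXC11 (-0.19, SE 1.25, adjusted p = 0.945) were not called, and HOXC11 took the opposite sign when single libraries were left out.

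In knockout line 2, 3 members were lower, where 7.63% of features were called lower and 6.50% higher. The log2 fold change was -2.18 for HOXB3 (SE 0.33, adjusted p = 0.00104) and -3.11 for HOXB-AS1 (SE 0.49, adjusted p = 3.14e-05). HOTAIRM1 was lower by -3.89 (SE 1.18, adjusted p = 0.0246), from 100 counts in controls to 3. The HOTAIRM1 call was lost without replicate A of either control line or without replicate B or C of knockout line 2 (adjusted p 0.0575 to 0.092). HOXB2 (-1.99, SE 0.92, adjusted p = 0.149), HOXA3 (-0.95, SE 0.98, adjusted p = 0.582) and HOXA-AS3 (1.59, SE 0.73, adjusted p = 0.147) were not called. HOXB1 (-1.19, adjusted p = 0.563) was called only without replicate B of that line (adjusted p = 0.0437), the library that held its 15 counts.

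**Figure D4:**
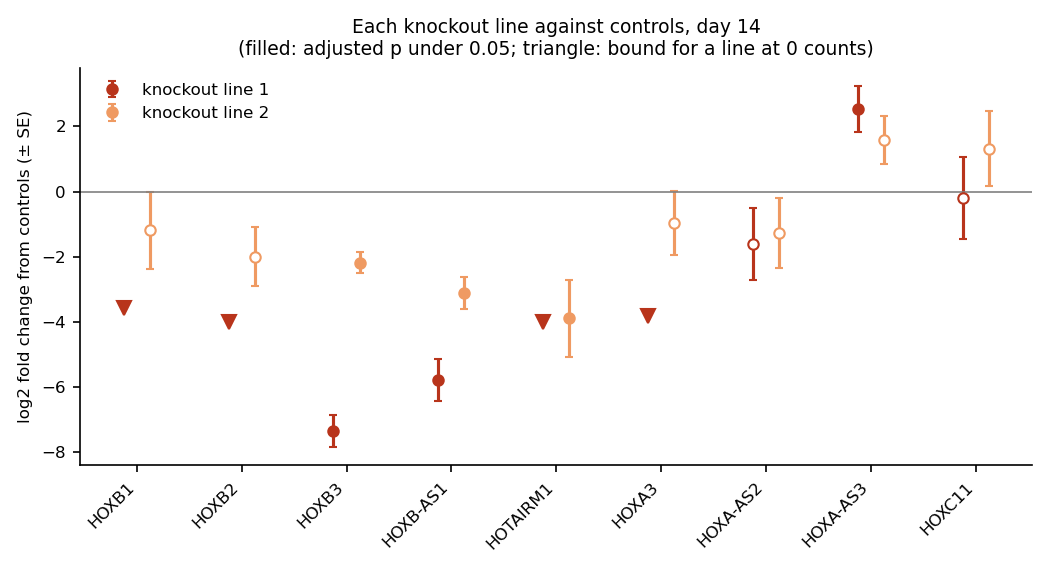
Log2 fold change of 9 HOX members in each knockout line against the 6 control libraries at day 14, with SE bars (circles) and, for a line at 0 counts, the bound set by 3 counts (triangles). Filled symbols have an adjusted p under 0.05, and HOXB3 is at -7.34 in line 1 and -2.18 in line 2.

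The 2 knockout lines differed from each other in HOXB3, which was higher in line 2 by 5.16 on the log2 scale (SE 0.55, edgeR adjusted p = 6.5e-05, 3 libraries against 3). This was 1 of 3 members tested, and 0.402% of 12442 features were called in either direction. With the 4 line groups in 1 fit, an alternative added after seeing the data that tested 9 members and called 1.23% of features, HOXB3 passed again (adjusted p = 0.000237). HOXB-AS1 (2.67, SE 0.75, adjusted p = 0.0758), HOXA3 (adjusted p = 0.114), HOXB2 (0.143) and HOXB1 (0.243) were higher in line 2 in their estimates and did not pass. HOTAIRM1 (adjusted p = 0.549) and HOXA-AS3 (-0.94, SE 0.82, adjusted p = 0.765) did not pass either.

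The control lines differed in HOXB-AS1, which was higher in line 2 by a log2 fold change of 1.62 (adjusted p = 0.0116), 1 of 7 members tested, where 0.244% of 11479 features were called. The call was lost without any replicate of control line 1 or without replicate B of control line 2 (adjusted p 0.0595 to 0.179), and with 4 line groups in 1 fit (0.391). HOXB3 was 0.54 higher in its estimate and did not pass (adjusted p = 0.448), but passed with no filter (0.53, adjusted p = 0.0473), where 0.247% of features were called. The gap between knockout lines in HOXB3 was thus 5.16 where the gap between control lines was 0.54.

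At day 0 HOX counts were nearly absent, with 88 in all 12 libraries together and 43 members at 0. HOXB3 had 21 counts in replicate C of control line 2, 7 in replicate C of knockout line 1, 1 and 3 in replicates B and C of knockout line 2, and none in the other 8 libraries. HOXB8 had 12 counts, all in the same control library as the 21 of HOXB3. HOTAIR had 11 counts in 3 libraries, HOXC13 8 in 1, HOXA-AS3 7 in 2, and each other member at most 5. No member passed the filter at day 0, so BRAT1 loss could not be tested there for any HOX name, and the depth leaves low levels undetected. Among the 4832 features tested at day 0, edgeR called 0 (0%), with 99 at an unadjusted p under 0.05. DESeq2 called 0 as well, with 868 at an unadjusted p under 0.05.

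Between day 0 and day 14 HOXB3 and HOXB-AS1 rose in controls, with log2 fold changes of 6.84 (SE 1.28, adjusted p = 0.000203) and 9.02 (SE 1.53, adjusted p = 3.6e-05). Over all 10971 features tested 28.4% were called higher. Only these 2 members were tested, and both passed the filter through their day 14 counts, so nothing is read from their number. In knockouts HOXB3 rose by 4.80 (SE 1.29, adjusted p = 0.00425) and HOXB-AS1 did not pass (1.71, SE 1.10, adjusted p = 0.213), where 29.8% of features were called higher. HOXB-AS1 passed in knockouts without replicate C of knockout line 1 at day 0 (5.03, adjusted p = 0.0177), the library that held its 4 counts of that day. The difference between genotypes in the change over time, tested as an interaction, passed for neither HOXB-AS1 (-7.32, SE 2.10, adjusted p = 0.0782) nor HOXB3 (-2.04, SE 1.91, adjusted p = 0.693), where 1.47% of features were called in either direction.

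With no filter on low counts 8 members were higher at day 14 in controls, HOXB1, HOXB2, HOXB3, HOXB-AS1, HOTAIRM1, HOXA3, HOXA-AS2 and HOXC11, where 11.3% of features were called higher. HOXC13 was called lower (adjusted p = 0.0344), from 8 counts in 1 day 0 library to none, where 5.18% of features were. In knockouts this fit called 4 higher, HOXB3, HOXA-AS3, HOXC11 and HOXD9, where 14.5% were. HOXB-AS1 passed the interaction test without the filter (adjusted p = 0.0242), where 1.89% of features passed, and with DESeq2 (adjusted p = 0.0381), where 3.52% did.

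Over the 12 day 14 libraries HOXB3 and HOXB-AS1 followed each other most closely of all features tested, with a Spearman correlation of log2 CPM of 0.984. After it came LINC00689 (0.972) and BRI3 (0.965) for HOXB3, and RAPH1 (0.977) and LENG8-AS1 (0.974) for HOXB-AS1. The points share genotype and line, and the exons of HOXB3 and HOXB-AS1 overlap.

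The genes that surround HOX regulation were read under the same doubt about strand. For this and the following lists, 10.7% of all features were called lower and 11.0% higher in the day 14 genotype comparison. In the fit by line, 8.99% were called lower and 8.05% higher in knockout line 1. For knockout line 2 the shares were 7.63% and 6.50%. Of 18 retinoid pathway genes, 7 were tested at day 14, 2 were lower and none higher, with a median log2 fold change of -0.583 beside 0.0735 over all features. STRA6, a cell surface receptor that takes up retinol, was lower by -2.91 (SE 0.38, adjusted p = 1.02e-05), from 46.9 and 52.4 CPM in the control lines to 3.69 and 9.69 in knockout lines 1 and 2. CRABP1, a retinoic acid carrier, was lower by -0.97 (adjusted p = 0.00872). The fit by line tested 11 of the list. In knockout line 1, 3 were lower and 1 higher (median -0.466), and in line 2, 1 was lower and 1 higher (median -0.238). ALDH1A2, which makes retinoic acid, entered only the fit by line and was higher in both lines, by 3.22 (adjusted p = 0.0091) and 3.36 (0.00786). It held 0 to 11 counts in control libraries and 4 to 44 in knockout libraries. It passed the filter through the knockout libraries, which favoured this direction. The retinoic acid degrading enzymes CYP26A1, CYP26B1 and CYP26C1 had no count in any knockout library at day 14 and at most 8 in a control library.

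Of 9 HOX cofactors of the TALE class, 7 were tested, 4 were higher in knockouts and none lower, with a median of 0.802. Among them were PBX3 (log2 fold change 1.56, SE 0.37, adjusted p = 0.00268), MEIS2 (0.80, adjusted p = 0.0031) and PKNOX2 (0.87, adjusted p = 0.0302). The cofactors that passed differed in the direction opposite to HOXB3 and HOXB-AS1.

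Of 19 other regulators of the hindbrain and spinal cord, 4 were tested, with a median of 1.09. The fit by line tested 7, of which 2 were higher and 2 lower in each knockout line, and its medians had the opposite sign, -1.03 in line 1 and -0.526 in line 2. EGR2, which patterns hindbrain segments, was lower (-2.59, SE 0.85, adjusted p = 0.0294), and LHX5 (2.79, adjusted p = 4.69e-07) and LHX1 (2.56, adjusted p = 0.0048) were higher. EGR2 passed the filter mostly through control libraries and LHX5 and LHX1 through knockout libraries, which favoured these directions. EGR2 had 8 to 27 counts in controls, 0, 0 and 18 in knockout line 1 and none in knockout line 2. Unlike HOXB3, EGR2 counts were thus not higher in knockout line 2 than in line 1.

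Of 27 Polycomb subunits and partners 18 were tested and 1 was higher, KDM6A (1.55, adjusted p = 0.0214), with a median of 0.445. Of 14 MLL and trithorax proteins 12 were tested and 3 were higher, KMT2C (1.16, adjusted p = 2.18e-05), KMT2A (0.66, adjusted p = 0.0154) and KANSL1 (1.12, adjusted p = 0.0244), with a median of 0.11. None of either list was lower in this comparison, while the fit by line called 1 Polycomb gene lower in knockout line 1, PCGF3 (-0.45, SE 0.15, adjusted p = 0.0292). Of 30 listed neighbours of the clusters, which include the member HOXC13-AS, 12 were tested and 3 were higher and none lower, with a median of 0.627. SNX10, a sorting nexin gene on the anterior side of HOXA, was higher by 2.04 (SE 0.16, adjusted p = 6.44e-10), from 152 and 130 CPM in the control lines to 650 and 509 in the knockout lines.

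Markers of other regions and cell types were read beside the HOX counts at day 14, and the lists did not all differ the same way. Of 12 forebrain markers, 7 were tested and all 7 were higher in knockouts, with a median log2 fold change of 5.11, and their sum was 19.9 to 44.9 CPM in controls and 293 to 502 in knockouts. A marker that passes the filter only through its knockout libraries had to be higher there, so the count of 7 says little by itself. SIX6 was at 0 in all 12 libraries, RAX and DLX2 were at 0 in all controls, and LHX2 was at 0 in control line 2. Of 9 midbrain and boundary markers, 5 were tested, 1 was higher (OTX2) and 2 were lower (WNT1 and EN1), and their sum was 74.5 to 114 CPM in controls, 16.7 to 48.6 in knockout line 1 and 61.8 to 90.6 in knockout line 2. The fit by line tested 8 of these markers. In knockout line 1, 6 were lower and 1 higher (median -2.86), and in line 2, 3 were lower and 1 higher (median -1.74). PAX5 was at 0 in knockout line 1 and FGF8 in knockout line 2. Of 8 neural crest markers, 5 were tested and 2 were lower (TFAP2B and SOX10), with sums of 115 to 157 CPM in controls and 37.2 to 76.3 in knockouts. None of 10 mesoderm and mesenchyme markers was tested, and their sum was 2.69 to 12.1 CPM in controls and 2.6 to 12.9 in knockouts, with MESP1 at 0 throughout. None of 5 tested stem cell markers was called.

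The forebrain sum was of like size in both knockout lines while the HOX sum was not. Members summed to 13.8 to 29.9 CPM in knockout line 1 and 95.7 to 139 in knockout line 2, against 252 to 621 in controls. BRAT1 counts and the midbrain sum were also higher in knockout line 2 than in line 1. The part of these other cells or of remaining BRAT1 in the HOX difference was not tested, and in bulk libraries fewer cells of a type and less RNA per cell cannot be told apart.

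**Figure D5:**
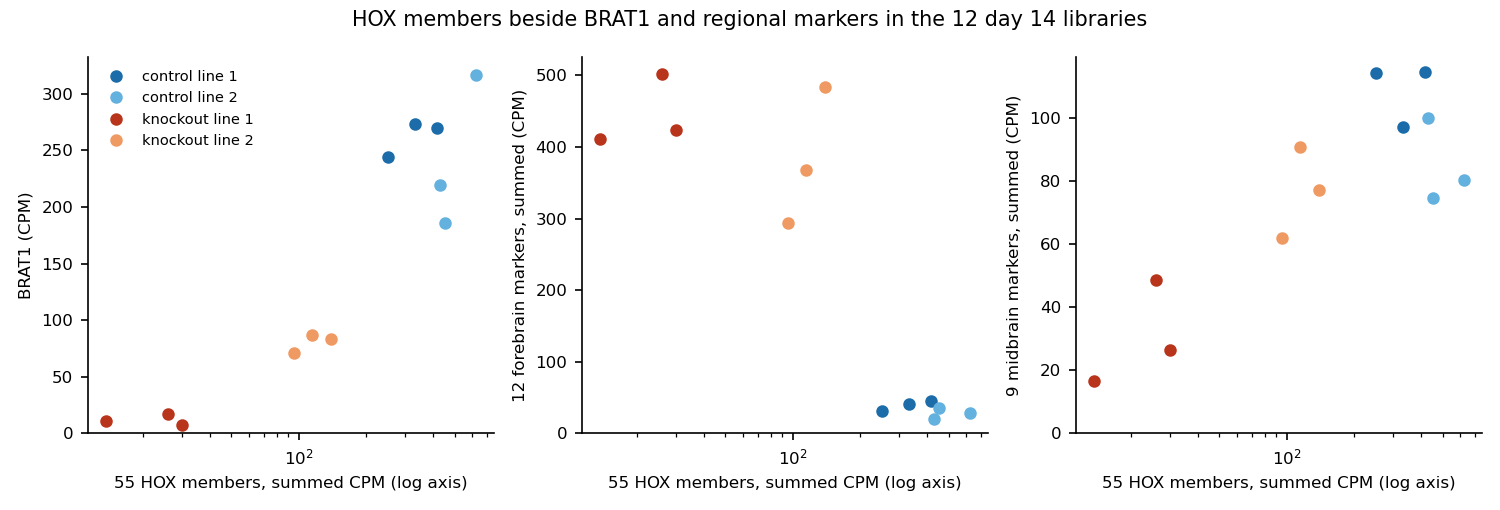
Summed CPM of the 55 HOX members (x axis, log) against BRAT1, the summed forebrain markers and the summed midbrain markers (y axes, CPM) in the 12 day 14 libraries, 1 point per library. Knockout line 2 lies between knockout line 1 and controls in HOX (95.7 to 139 CPM) and BRAT1, and the forebrain sum is 293 to 502 CPM in both knockout lines.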

How the data were processed

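The deposited tables hold raw read counts per feature, which the authors made from poly(A) Click-Seq libraries, 1 table for each of 24 libraries. Per the submitters' processing notes the tools were bcl2fastq 2.20.0, STAR 2.7.9a, featureCounts of Subread 2.0.1, DESeq2 1.34.0 and R 3.5.1, with GRCh38. Neither annotation release nor strand setting is stated (not given in the sources used here). No counts were rescaled before testing, and CPM is counts over the library total, times 1000000. All 55 members were placed by name on GENCODE 29.

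Tests used quasi-likelihood fits of edgeR 4.0.16 (R 4.3.3, TMM scaling, filterByExpr with a minimum count of 10 and total of 15), adjusted by Benjamini-Hochberg over all features tested, with 0.05 as the threshold. Day comparisons and the interaction came from 1 fit of 24 libraries. Line was not a term in the genotype comparisons, so the 3 libraries of a line counted as independent, and p-values cover only the spread between libraries. The day 14 genotype fit was tested on simulated data. Folds against a group at 0 used a floor of 3 counts over the group.

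Members were named with their counts where they passed the filter at day 14 or were called, and others by counts per cluster. From each other gene list at most 4 examples were taken by smallest adjusted p among features passing the filter, and members and list genes named beyond that were chosen after their values were seen. The members and lists were chosen with earlier results of these data known. The results were recomputed without a filter, with RLE scaling, DESeq2 1.42.0, a replicate block, line sums, or every library in a single fit, and with each line or library dropped. Some genes are not reported here.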

Additional observations from a re-analysis of the deposited data

Results flagged for a closer look

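Groups of 6 libraries were examined for a single library far from the other 5, at day 14 for the 9 members tested by line and at day 0 for HOXB3 and HOXB-AS1 only. Of 21 groups, 3 had one. In well measured values chance flags about 1 group in 20, but each of these 3 has counts in 1 library and 0 in the rest, where the gap equals the whole range by construction, so that rate does not apply and the number of such groups shows nothing. HOXB3 had 14.5 CPM (21 counts) in replicate C of control line 2 at day 0 and none in the other 5 control libraries. HOXB-AS1 had 1.87 CPM (4 counts) in replicate C of knockout line 1 at day 0, the knockout library that also held 7 counts of HOXB3. HOXB1 had 4.71 CPM (15 counts) in replicate B of knockout line 2 at day 14 and none in the other 5 knockout libraries.

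The change of HOXB3 from controls differed between the knockout lines by 5.16 on the log2 scale (SE 0.50, edgeR adjusted p = 0.000237 in the fit of 4 line groups), smaller in line 2, with all 3 libraries of line 2 above all 3 of line 1.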

How the results depend on the processing

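The count of members lower in knockouts at day 14 (2) was 4 with DESeq2, 1 with a replicate block, 1 without control line 2 and 6 without knockout line 2. It was 1 with all 24 libraries in 1 fit and 1 to 4 with single libraries left out. With counts summed per line it was 1, and neither HOXB3 nor HOXB-AS1 passed there. The count higher (0) was 1 with DESeq2, with no filter and without knockout line 2, and 0 to 1 with single libraries left out. Members higher at day 14 than at day 0 numbered 7 (DESeq2) or 8 (no filter) in controls in place of 2, with 2 to 3 for single libraries, and 5 or 4 in knockouts in place of 1, with 1 to 3 for single libraries. The interaction count (0) was 1 with DESeq2 and with no filter. The count between control lines (1) was 2 with no filter, 0 with 4 line groups in 1 fit, and 0 to 1 for single libraries. The counts lower in knockout line 1 (6, range 5 to 6) and line 2 (3, range 2 to 3), changed at day 0 (0) and between knockout lines (1) stayed within 1.5 times of these under every alternative run. Signs reversed only for 2 uncalled values, when single libraries were left out: HOXC11 in knockout line 1 ranged from -2.81 to 0.36 (0.14, 0.35, 0.21 and 0.36 where positive), and HOXA3 between control lines from -0.84 to 0.38 (0.38 and 0.35 where positive).

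At day 14 the replicate letters did not pair the samples, as deviations of same-letter libraries correlated at -0.153 to 0.0822. At day 0 same-letter libraries did deviate together, at 0.0606 to 0.231 against -0.148 to 0.0194 for different letters, but only 9 of 18 pairs were above 0.1, the bound used for pairing. With the replicate block no member could be tested at day 0. With the replicate block the adjusted p of HOXB3 in knockouts at day 14 was 0.0714. DESeq2 moved the median log2 fold change over the features it tested from 0.0735 to 0.201, with more features tested. Most members have too few counts at this depth to show a difference of either sign, and at day 0 none could be tested with the filter.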
